A study of Triticum aestivum with 6 samples.

Results

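Crown tissue of the synthetic hexaploid wheat line crt/KU-2025, a grass-clump dwarf, was set against crown tissue of the wild-type (WT) line Ldn/KU-2059 on 4 one-colour arrays, 2 per line, out of the 6 arrays of the series. The 4 arrays were taken by their labelled line and phenotype. The dwarf crt/KU-2025 joins the A and B genomes of Triticum turgidum subsp. carthlicum with the D genome of Aegilops tauschii KU-2025, and WT joins those of the tetraploid cultivar Langdon (Ldn) with the D genome of Ae. tauschii KU-2059. Both lines were grown at 24 °C under 18 h of light and 6 h of dark and were sampled at 8 weeks, and each line is a selfed descendant of 1 interspecific cross. Both parents differ between the lines, and the 2 crt/KU-2025 arrays sat on a slide with no WT array and were scanned apart from WT, so dwarfism, parentage and slide cannot be told apart here. The replicate arrays came from 2 experiments that the study calls independent, and p-values measure only the spread between such arrays.

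Grass-clump dwarfs appear in some wheat hybrids when a gene of the A and B genomes meets a partner gene of the D genome, and they form many short tillers while flowering late or not at all. The crown is the short stem at the base of the plant that carries the shoot apical meristem and the tiller buds. In wheat and its relatives, SQUAMOSA promoter binding protein-like (SPL) transcription factors, held down by the microRNA miR156, drive the change from juvenile to adult growth and restrain tillering in rice, and MADS-box factors of the AP1/FUL group, among them Vrn1, turn the apex toward flowering.

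Each array held 37826 gene probes, named by expressed sequence contigs. Signals below are array units after every array was scaled to 1 common mean. Between 75.4% and 76.6% of probes were well above background on the crt/KU-2025 arrays and 75.1% and 75.3% on the WT arrays, and no probe was saturated. The words below background stand for probes not flagged as well above it. Log2 signals correlated at 0.978 between the crt/KU-2025 arrays, at 0.992 between the WT arrays and at 0.871 to 0.898 between the lines, across probes, which are not independent replicates. No probe name matched the wheat gene table at hand, so descriptions are those of the study's lists. In all 1230 probes had one, of which 1025 were among the rises reported below and 40 among the falls, so the falls are known mostly by probe name.

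A probe was called up-regulated or down-regulated where crt/KU-2025 and WT differed at least 3-fold with an adjusted p under 0.05. On this rule 4418 probes (11.7%) rose and 3873 (10.2%) fell in crt/KU-2025, 8291 (21.9%) in all. Without the p threshold, 4809 probes (12.7%) passed 3-fold upward and 4456 (11.8%) downward. Both crt/KU-2025 arrays were above both WT arrays on 16897 probes (44.7%) and below them on 14876 (39.3%). By size alone, 15473 of all probes (40.9%) lay within 1.5-fold of WT, and the median absolute log2 ratio was 0.78. Of the up-regulated probes, 3277 (74.2%) changed between 3-fold and 10-fold and 141 at least 100-fold by the fitted ratio. Of the down-regulated probes, 2646 (68.3%) changed between 3-fold and 10-fold and 98 at least 100-fold. Many of the extreme ratios had 1 line near background: among probes well above background on all 4 arrays, 23 rises and 15 falls reached 100-fold. When probes were cut into 5 equal classes by mean signal, calls were scarcest in the dimmest, with 4.61% up-regulated and 5.31% down-regulated, and commonest in the one above it, with 16.9% and 16%.

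**Figure D1:**
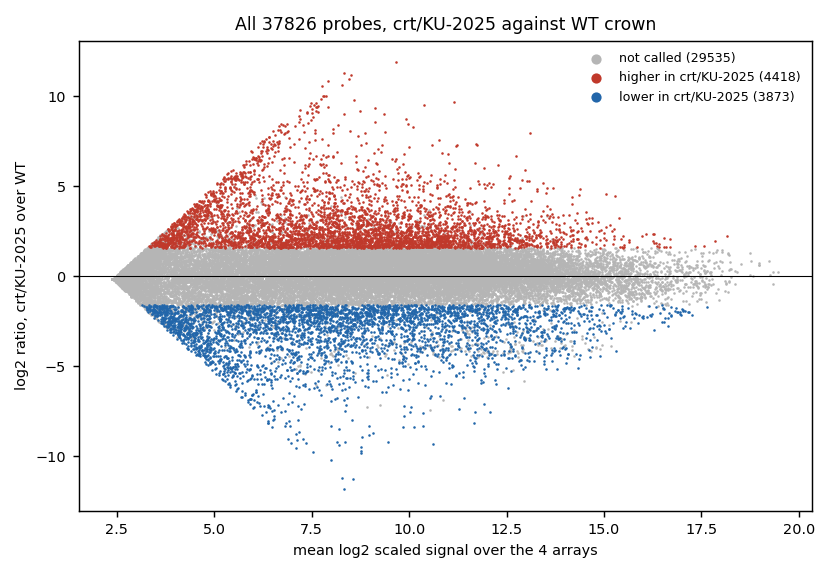
Log2 ratio of crt/KU-2025 over WT (vertical axis) against the mean log2 scaled signal of the 4 arrays (horizontal axis) for 37826 probes. The 4418 up-regulated probes are red, the 3873 down-regulated probes are blue and the others are grey, and both coloured groups run through the whole range of signal.

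The SPL probes were lower in crt/KU-2025, 1 of them by 150-fold. Probe wheat0130Contig8035 gave 78 and 73.9 in crt/KU-2025, against 11363 and 11420 in WT, a log2 ratio of -7.23 (SE 0.08, adjusted p = 0.000923). It was the largest fall among probes that were well above background on all 4 arrays with both replicate pairs within 1.5-fold. A second SPL probe, rwhoh17n20, gave 640 and 615 in crt/KU-2025 and 2692 and 2649 in WT (log2 ratio -2.09, SE 0.08, adjusted p = 0.00162). The third, MUGEST2003_23lib_Contig14620_504, was not well above background in crt/KU-2025 and gave 38.2 and 37.4 in WT, so its fall was at least 1.51-fold (adjusted p = 0.00545). All 3 SPL probes the study wrote of were thus called down, against 10.2% of all probes, and they were put forward by the study with these arrays in hand.

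Probes for AP1/FUL-like flowering genes also fell in crt/KU-2025, and 2 of 3 were called. The probe for TaAP1-2, rwhfl48m16, was at 5.89 and 10.8 in crt/KU-2025, not well above background, against 678 and 790 in WT, a fall of at least 29.3-fold (adjusted p = 0.00244). The probe for the vernalization gene Vrn-A1, wheat0130Contig14238, was likewise below background at 8.35 and 13.3 in crt/KU-2025, against 158 and 170 in WT, at least 6.55-fold lower (adjusted p = 0.00329). A fold given as "at least" sets the mean of the line in which a probe was measured against the higher of the lowest signal well above background and the probe's own signal on each array of the other line. TaAP1-3, on probe wheat0130Contig14728, kept a signal of 1531 and 1751 in crt/KU-2025, against 3923 and 4112 in WT. Its log2 ratio of -1.29 (SE 0.11, adjusted p = 0.00451) passed the p threshold and stayed short of 3-fold. In none of these 3 probes did the lines overlap. In tissue sampled whole, fewer cells of a type and less RNA per cell cannot be told apart.

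Of the 13 transcription factor probes that the study listed as lower in crt/KU-2025, 4 were MADS-box probes and 4 belonged to the AP2/ERF superfamily. All 13 were called down here on the same arrays, which is not independent evidence, with log2 ratios from -8.66 to -1.68. The MADS-box probe WM7 (rwhf1p23) was at 7.45 and 6.93 in crt/KU-2025 and at 2807 and 3023 in WT, at least 116-fold lower (adjusted p = 0.000923). WM13 (ncbi_gi_40644779_305) was not well above background in crt/KU-2025, at 15.2 and 29.9, against 588 and 619 in WT. WM8 (rwhfl24d04) remained measurable, at 46.5 and 72.5 in crt/KU-2025, against 1564 and 1642 in WT. The lowest WT signal of these 3 probes thus lay about an order of magnitude or more above the highest crt/KU-2025 signal. The study matched WM7 to the same sequence entry as the TaAP1-2 probe, and WM8 to that of the Vrn-A1 probe. Their falls may thus repeat genes already given above.

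Factors tied to meristems and growth stood on the same list. An AP2 probe (rwhyf2e11), of the family that in Arabidopsis patterns flowers and meristems, gave 110 and 116 in crt/KU-2025 and 1965 and 1934 in WT (log2 ratio -4.11, SE 0.08). The AINTEGUMENTA-like AIL5 probe (whec14a15_212), whose Arabidopsis relatives maintain dividing tissue, gave 27.4 and 46.7 in crt/KU-2025 and 253 and 256 in WT (-2.83, SE 0.31). The probe for DP-1 (ncbi_gi_11877790_965), the partner of E2F factors in control of DNA replication, gave 82.2 and 66.2 in crt/KU-2025 and 262 and 274 in WT (-1.86, SE 0.15). The WIN1-like probe (MUGEST2003_23lib_Contig10290_927), a relative of an Arabidopsis activator of wax and cutin synthesis, had log2 ratio -4.04 (SE 0.39), and its 2 crt/KU-2025 arrays stood 1.94-fold apart. The least of the 13 falls was that of the histone gene promoter-binding factor HBP-1a (ncbi_gi_469055_1362), with 660 and 625 in crt/KU-2025 and 2026 and 2078 in WT (-1.68, SE 0.08). For the G-box binding factor probe ATU17891, which fell by a bound of 3.79-fold (adjusted p = 0.0153), the call was lost without either WT array (adjusted p up to 0.0707).

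The 11 transcription factor probes on the study's list of rises were all called up on the same arrays, with log2 ratios from 2.18 to 5.19, and 4 of them were WRKY probes, a family with many members that switch on defence genes. The probe described as WRKY10 (rwhcs14n21_490) gave 7559 and 9570 in crt/KU-2025, against 229 and 238 in WT (log2 ratio 5.19, SE 0.15, adjusted p = 0.00131). A second WRKY probe (MUGEST2003_23lib_Contig5310_624) gave 2956 and 3156 in crt/KU-2025 and 196 and 191 in WT (3.98, SE 0.09). The MYB44-like probe (wheat0130Contig2276), of a stress-responsive MYB subgroup, gave 1656 and 1353 in crt/KU-2025 and 112 and 123 in WT. The probe for a secondary wall NAC factor (rwhh21m11), named after maize regulators of wall thickening, gave 1197 and 1223 in crt/KU-2025 and 101 and 111 in WT. In each of these 4 probes the lower crt/KU-2025 array was above the higher WT array by more than 10-fold.

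**Figure D2:**
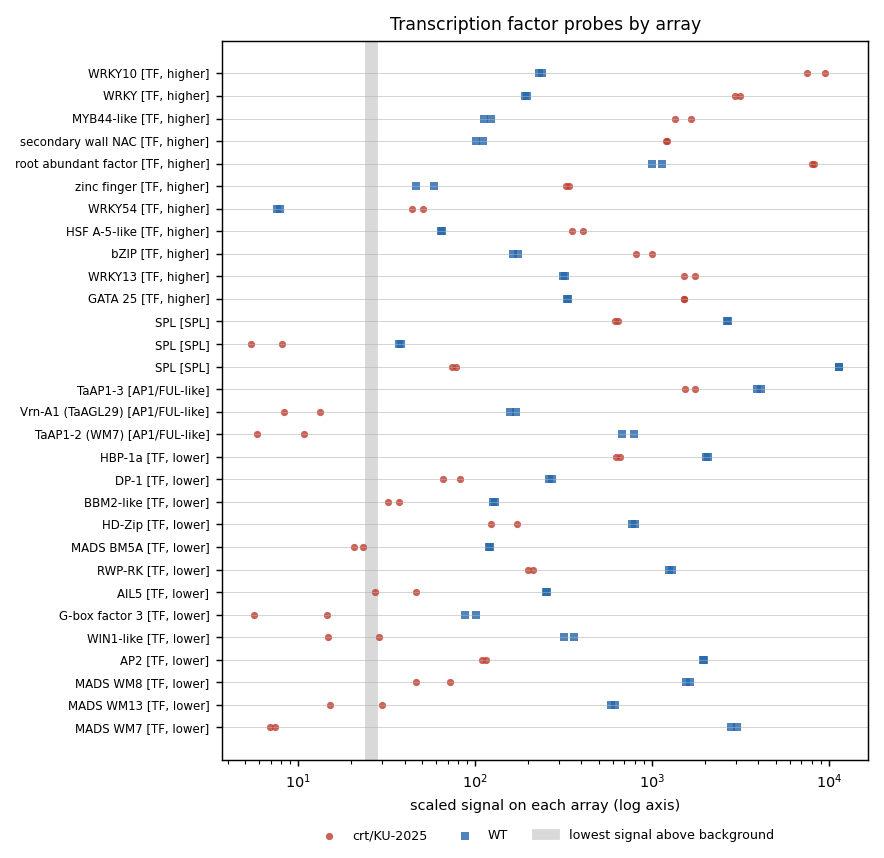
Scaled signal on each array (horizontal log axis) of the 30 transcription factor probes the study named for rises, SPL, AP1/FUL-like and falls, crt/KU-2025 as red circles and WT as blue squares. The grey band spans the lowest signals well above background on the 4 arrays (24.22 to 27.86). Both crt/KU-2025 arrays lie left of it for WM7, TaAP1-2, Vrn-A1, the MADS-box probe BM5A, the G-box binding factor and the SPL probe MUGEST2003_23lib_Contig14620_504.

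Transcription factors that respond to cold in another dwarf gave a list chosen on none of these 4 arrays. In the dwarf Ldn/KU-2025 the study had listed 13 probes as raised and 15 as lowered by low temperature. In crt/KU-2025 crowns at 24 °C, 4 of the 13 cold-raised probes were called up and 1 down, with a median log2 ratio of 0.07, and 1 of the 15 cold-lowered probes was called up and 5 down, with a median of -0.93. Over all probes 11.7% were called up and 10.2% down, with a median of 0.10. Leaving out the probes that the study also named for the crown comparisons, 21 remained, with 4 up and 0 down at a median of 0.07.

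Among them a WRKY45 probe (MUGEST2003_23lib_Contig9578_175), from a family member that primes blast resistance in rice, gave 13332 and 8098 in crt/KU-2025 and 827 and 861 in WT (log2 ratio 3.62, SE 0.29, adjusted p = 0.00407). The WRKY22 probe (MUGEST2003_23lib_Contig1326_155) gave 1737 and 1392 in crt/KU-2025 and 381 and 390 in WT (2.01, SE 0.15, adjusted p = 0.00352). The MADS-box WM30 probe (MUGEST2003_23lib_Contig4256_1071) was below background in WT and at 115 and 88.2 in crt/KU-2025, at least 3.65-fold higher (adjusted p = 0.0122). The WM20 probe (whfl_allContig1391) met the rule with all 4 arrays not well above background, so no fold is given for it. The C-repeat binding factors (CBF), activators of cold-responsive genes, were not well above background on any of the 4 arrays, on both of their probes. By the methods' t-test on linear signals, the adjusted p was 0.116 for WRKY45, 0.0558 for WRKY22 and 0.072 for WM30, so these calls were lost there. The other 7 WRKY probes on the cold-lowered list were not called, with log2 ratios from -1.02 (wheat0130Contig8019, adjusted p = 0.0153) to 1.17 (MUGEST2003_23lib_Contig4148_13, adjusted p = 0.0033). The brightest of them, wheat0130Contig10100, gave 44079 and 49780 in crt/KU-2025, against 89598 and 89230 in WT (log2 ratio -0.93, SE 0.10, adjusted p = 0.00709).

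Pathogenesis-related proteins and proteinase inhibitors had the highest medians among described classes. Described probes were sorted into 18 classes by words in their descriptions, which took in 299 probes, of which 226 were called up and 9 called down. Most class members come from the study's list of probes that rose in crt/KU-2025, which these same arrays produced, so their share of rises was fixed by the choice and is given as a description. Only part of that list, 1096 probes, was used here, so class sizes, counts and medians cover the probes read and not every probe of a kind. The other members come from lists of Ldn/KU-2025 against the same WT arrays, so their direction was partly set by that choice. Within each class the rule names the largest called change and the median member, and the further members named here were chosen after their values were seen.

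All 8 probes read for pathogenesis-related proteins were up-regulated, and their median log2 ratio was 7.33 (6.31 where each bounded probe is put at its bound). Apart from a pathogenesis-related 1 probe and a chitinase probe, all were described as endo-1,3-beta-glucanases or glucosidases, so the median mainly describes that enzyme family. The largest was an endo-1,3-beta-glucosidase (MUGEST2003_23lib_Contig16264_863), of the enzymes that cut callose and fungal wall glucans, at 16915 and 17814 in crt/KU-2025, against 7.52 and 7.69 in WT, at least 628-fold higher (adjusted p = 0.000923). An endo-1,3-beta-glucanase (wheat0130Contig10385), the member nearest the median, was at 1965 and 1833 in crt/KU-2025 and below background in WT, at least 68.7-fold higher. Pathogenesis-related 1 (wheat0130Contig6231), a marker of salicylic acid defence, was measurable in both lines, at 41348 and 39717 in crt/KU-2025, against 919 and 918 in WT (log2 ratio 5.46, SE 0.08, adjusted p = 0.000923). By quantitative RT-PCR on crowns of younger plants, the study reported no significant rise of a gene of this name in this dwarf at normal temperature. Why the array and that assay differ was not tested. The chitinase probe (wheat0130Contig5942), taken from the Ldn/KU-2025 list, gave 18782 and 31113 in crt/KU-2025 and 122 and 134 in WT (7.56, SE 0.30, adjusted p = 0.00166). By the methods' t-test on linear signals its adjusted p was 0.106, so the chitinase call was lost there. No probe of the class had overlapping lines.

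Proteinase inhibitors, which block digestive proteases of insects and microbes, were called up on 9 of 10 probes with a median log2 ratio of 7.26. By the methods' t-test on linear signals 3 of the 9 calls were kept, and the 4 CI-1B probes named below and the alpha-amylase trypsin inhibitor-like probe were among those lost. An alpha-amylase trypsin inhibitor-like probe (MUGEST2003_23lib_Contig3803_446) gave 27114 and 48974 in crt/KU-2025 and 54.5 and 44.2 in WT (log2 ratio 9.54, SE 0.36, adjusted p = 0.00159). The 4 probes for the subtilisin-chymotrypsin inhibitor CI-1B, which may read copies of 1 gene, had log2 ratios between 7.23 and 7.35. One of them, whsh_allContig137, gave 35185 and 52752 in crt/KU-2025 and 262 and 267 in WT. The median log2 gap between the crt/KU-2025 arrays in this class was 0.747, with array 2 higher on 8 of 10 probes. The single probe not called, a Bowman-Birk inhibitor (wheat0130Contig10174), had a log2 ratio of -1.18 (SE 0.54, adjusted p = 0.158).

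The germins, enzymes and proteins of the cell wall space, divided along the lists their probes came from. Both germin 8-5 probes stand on the study's list of rises in crt/KU-2025, and both germin 5-1 probes on the Ldn/KU-2025 list alone. A division by germin type was not tested. Both probes for germin 8-5 rose: wheat0130Contig11551 gave 19231 and 18704 in crt/KU-2025, against 49.3 and 57 in WT (log2 ratio 8.48, SE 0.11, adjusted p = 0.000923), and MUGEST2003_23lib_Contig3789_112 was at least 502-fold higher. Both probes for germin 5-1 lay near WT, with log2 ratios of 0.23 (SE 0.21, adjusted p = 0.407) and 0.32 (SE 0.22, adjusted p = 0.292). WIR1B (MUGEST2003_23lib_Contig8487_168), a small wheat protein induced by pathogens, gave 7962 and 7692 in crt/KU-2025 and 46.2 and 55.9 in WT (7.27, SE 0.13, adjusted p = 0.000923).

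Probes for receptors of the immune system were called in both directions, as the lists they came from partly set. Of 18 probes for disease resistance proteins of the NB-LRR type, intracellular receptors for pathogen effectors, 14 were up-regulated and 2 down-regulated, and under normexp background correction 6 were up-regulated and 1 down-regulated. The list of rises in crt/KU-2025 gave 13 of them, all called up. Of the 5 from Ldn/KU-2025 lists only, 1 was called up and 2 down, with a median log2 ratio of 0.30. Over all probes 11.7% were called up and 10.2% down. An NBS-LRR probe (MUGEST2003_23lib_Contig7212_967) gave 1625 and 1670 in crt/KU-2025 and was below background in WT at 5.89 and 6.14, at least 59.6-fold higher (adjusted p = 0.000923). Another (rwhyf28g23) was below background in crt/KU-2025 at 5.37 and 5.08 and gave 281 and 299 in WT, at least 11.6-fold lower (adjusted p = 0.000923). In 11 of the 18 probes 1 line was below background. Genes of this type differ in number among wheat accessions, and a lost signal and a lost gene copy cannot be told apart on these arrays.

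Receptor kinases at the cell surface were called up on 25 of 31 probes and down on 2, against 16 up and 1 down under normexp background correction. The list of rises in crt/KU-2025 gave 23 of the 31, all called up. Among the 8 from Ldn/KU-2025 lists only, 2 were called up and 2 down, with a median log2 ratio of 0.08. The strongest rise was an L-type lectin-domain receptor kinase (rwhei10o03_351), at 21664 and 11193 in crt/KU-2025 and 7.83 and 7.94 in WT, at least 563-fold higher (adjusted p = 0.00148, and 0.145 by the methods' t-test). Wall-associated kinases, which bind pectin, went both ways. A WAK1 probe (rwhr13f16), not well above background in WT, rose in crt/KU-2025 by at least 8.59-fold (adjusted p = 0.00161). A WAK3 probe (MUGEST2003_23lib_Contig20041_612) gave 1865 and 1677 in crt/KU-2025 and 96 and 93.9 in WT (log2 ratio 4.22, SE 0.10, adjusted p = 0.00105). Both falls of the class were also wall-associated kinases, from the study's list of falls in Ldn/KU-2025. The larger (rwhkp15b19_765) was below background in crt/KU-2025 at 9.89 and 13.3, against 662 and 677 in WT, at least 26.8-fold lower (adjusted p = 0.00136). The other (rwh10k03) had a log2 ratio of -3.04 (SE 0.48, adjusted p = 0.015), and its call was lost without either WT array (adjusted p up to 0.0692). A wall-associated kinase probe that was not called (rwh19l04_2) had a log2 ratio of -1.18 (SE 0.10, adjusted p = 0.00412).

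Oxidative and detoxifying enzymes were mostly higher in crt/KU-2025, as the lists they came from partly set. Of 15 peroxidase probes, 14 were called up, with a median log2 ratio of 3.47, against 11.7% called up over all probes. The list of rises in crt/KU-2025 gave 8 of them, all called up, and 6 of the 7 from Ldn/KU-2025 lists only were called up. The calls at whr17h18, wheat0130Contig8692, wheat0130Contig4339 and wheat0130Contig6294, from those lists, were lost by the methods' t-test on linear signals (adjusted p from 0.0546 to 0.189). Peroxidase 5-like (whsh11j09) gave 3237 and 3604 in crt/KU-2025 and 268 and 356 in WT (log2 ratio 3.47, SE 0.19, adjusted p = 0.00237). Of 9 glutathione transferases, which couple glutathione to toxic compounds, 7 rose and 1 fell. The list of rises in crt/KU-2025 gave 6 of the 9, all called up, and of the other 3, 1 was called up and 1 down. The fall (rwhh7k11) was tight, at 110 and 115 in crt/KU-2025 and 1031 and 985 in WT (-3.16, SE 0.08, adjusted p = 0.00118). Cytochrome P450 probes were called up on 11 of 12. The list of rises in crt/KU-2025 gave 8 of the 12, all called up, and 3 of the other 4 were called up. Of those 3, the calls at whf12i09 and rwhsl8m13 were lost by the methods' t-test (adjusted p = 0.157 and 0.143).

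Enzymes of the phenylpropanoid route, which supplies lignin, flavonoids and phenolic defence compounds, were called up on 29 of 31 probes with none down and a median log2 ratio of 2.78. The list of rises in crt/KU-2025 gave 24 of the 31, all called up. Of the 7 from Ldn/KU-2025 lists only, 5 were called up, against 11.7% of all probes. These 5 calls were lost by the methods' t-test on linear signals (adjusted p from 0.0545 to 0.171). Phenylalanine ammonia-lyase, the entry enzyme of the route, rose on its 3 probes with log2 ratios from 2.24 to 4.09, and wheat0130Contig11747 gave 12186 and 15412 in crt/KU-2025 and 786 and 829 in WT. The median probe, for caffeic acid O-methyltransferase of lignin synthesis (whr5e03), gave 5897 and 6292 in crt/KU-2025 and 882 and 888 in WT (2.78, SE 0.08, adjusted p = 0.00133). Probes described as O-methyltransferase ZRP4, a root enzyme of maize, rose on 5 of 5, the largest (wheat0130Contig4791) at least 139-fold. Wall synthesis genes, read from the Ldn/KU-2025 list of rises alone, were called up on 5 of 9 probes (2 by the methods' t-test), with a median log2 ratio of 2.85. Cellulose synthase A catalytic subunit 9 (wheat0130Contig1302) gave 1749 and 2210 in crt/KU-2025 and 180 and 170 in WT (3.49, SE 0.16, adjusted p = 0.00189), while another probe of the same description (wheat0130Contig11052) gave 7280 and 7504 in crt/KU-2025 and 5724 and 5418 in WT.

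Among described regulators and transporters, rises were again nearly all that the lists held, as the choice of lists fixed. WRKY probes rose on 6 of 6, MYB on 12 of 12, NAC on 6 of 7, F-box proteins on 26 of 26 (16 under normexp background correction) and membrane transporters on 47 of 48. The NAC probe rwhe1p21 gave 3302 and 3562 in crt/KU-2025 and 65.1 and 54.4 in WT (log2 ratio 5.85, SE 0.13, adjusted p = 0.00103). Polyol transporter 5 (MUGEST2003_23lib_Contig22075_1190), a carrier of sugar alcohols, gave 11661 and 13229 in crt/KU-2025 and 89.4 and 81.2 in WT (7.19, SE 0.12, adjusted p = 0.000923). Heat shock proteins, chaperones of folding, were mixed with 4 of 9 up and 1 down. The fall was heat shock cognate 70 (wheat0130Contig12558), at 173 and 182 in crt/KU-2025 and 18556 and 17259 in WT (-6.66, SE 0.09, adjusted p = 0.000923), while another 70 kDa heat shock probe (rwhsp12i01_120) was at least 28.7-fold higher.

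**Figure D3:**
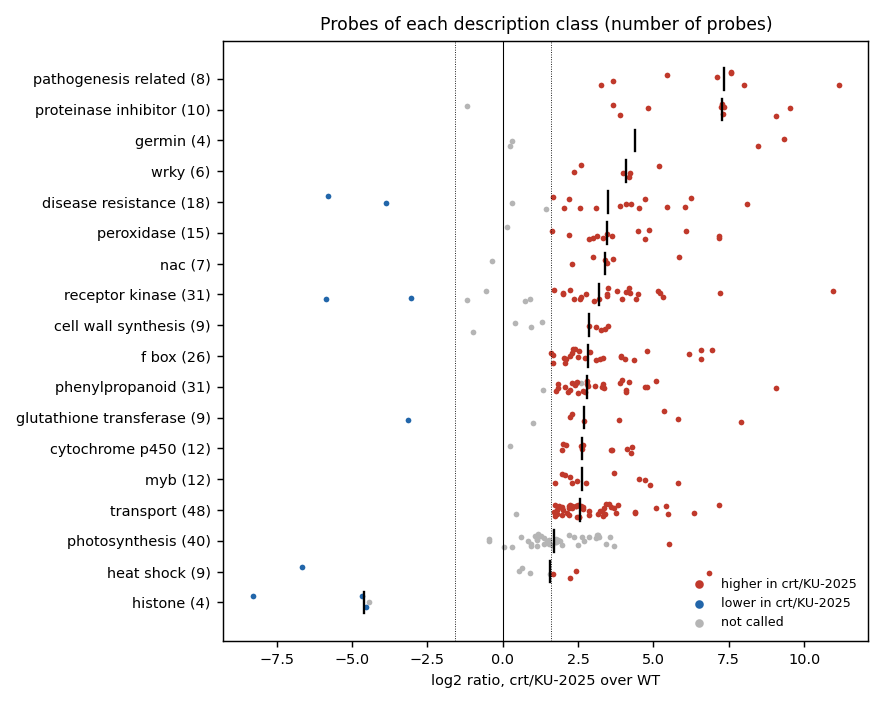
Log2 ratio of crt/KU-2025 over WT (horizontal axis) of every probe in each of the 18 description classes (rows, with the number of probes), coloured red where up-regulated, blue where down-regulated and grey where not called. Black bars are medians and dotted lines mark 3-fold. The medians of pathogenesis-related proteins and proteinase inhibitors, 7.33 and 7.26 as fitted, are 6.31 and 7.23 with bounded probes at their bounds, histones are lowest at -4.61, and most classes draw on a list of rises made from these arrays.

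Histone probes had the lowest median of the 18 described classes in crt/KU-2025, at -4.61 on the log2 scale. Core histones package new DNA and are transcribed mainly in dividing cells. The 4 probes came from the list of falls in Ldn/KU-2025, and 3 of them were called down. A histone H4 probe (wheat0130Contig5388) was below background in crt/KU-2025, at 21 and 9.78, against 4507 and 4559 in WT, at least 181-fold lower (adjusted p = 0.00229). Probe wheat0130Contig15397 gave 537 and 104 in crt/KU-2025 and 6151 and 5913 in WT (log2 ratio -4.68, SE 0.93, adjusted p = 0.0252), and without WT replicate 1 its adjusted p was 0.0926. Without either WT array 1 of the 3 calls was kept. Probe wheat0130Contig5126 gave 1682 and 277 in crt/KU-2025 and 15765 and 15888 in WT (-4.54, SE 1.01, adjusted p = 0.0334), with an adjusted p of up to 0.112 when 1 array was left out. The fourth, another H4 probe (wheat0130Contig14472), gave 75.3 and 9.06 in crt/KU-2025 and 571 and 565 in WT and stood at an adjusted p of 0.0503. On 4 of 4 probes array 1 of crt/KU-2025 was above array 2, on 3 of them by at least 3-fold.

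Photosynthesis probes set the crt/KU-2025 arrays apart from each other more than from WT. The 40 probes for light harvesting, the photosystems and carbon fixation came from the list of rises in Ldn/KU-2025. Their median signal was 214 on crt/KU-2025 array 1 and 3773 on array 2, against 330 and 316 on the WT arrays. Array 2 was higher on 39 of 40 probes, and 39 of 40 differed at least 3-fold between the crt/KU-2025 arrays. The median of the class was 1.69 on the log2 scale with both arrays, 3.70 without array 1 and -0.18 without array 2. A single probe of the 40 was called up, although 20 others were over 3-fold. Without crt/KU-2025 array 1, 40 were called up, and without array 2, 3 were called up and 6 down.

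That called probe, a chlorophyll a-b binding protein (rwhcs20f08_m_664), which holds pigment in the antenna, gave 8392 and 8312 in crt/KU-2025 and 164 and 200 in WT (log2 ratio 5.53, SE 0.14, adjusted p = 0.0011). The widest gap was at a light-harvesting chlorophyll a-b binding probe (rwhsh14j20), with 5.14 and 1029 in crt/KU-2025, against 10.2 and 13.7 in WT. Rubisco activase (wheat0130Contig57), which keeps the carbon-fixing enzyme active, gave 49.4 and 4314 in crt/KU-2025 and 113 and 121 in WT. The same array order held at glycolate oxidase GLO1 (wheat0130Contig7544), the photorespiratory enzyme of peroxisomes, with 6.37 and 720 in crt/KU-2025 and 9.01 and 20.3 in WT. For these probes crt/KU-2025 array 1 was at or below WT and array 2 far above it, so no line difference was called.

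**Figure D4:**
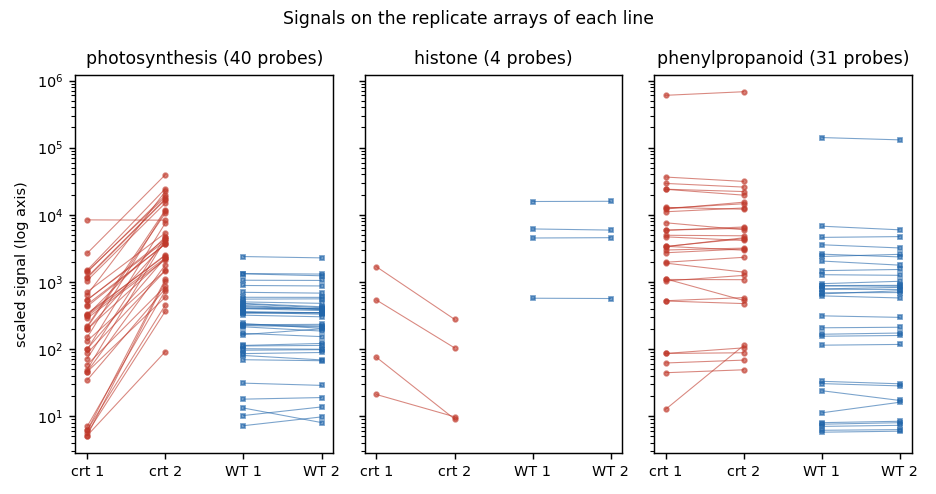
Scaled signal (vertical log axis) on crt/KU-2025 arrays 1 and 2 (red) and WT arrays 1 and 2 (blue), 1 line per probe and pair, for 40 photosynthesis, 4 histone and 31 phenylpropanoid probes. Photosynthesis lines climb steeply from crt/KU-2025 array 1 to array 2 and histone lines drop, while WT lines and most phenylpropanoid lines run nearly flat. Of the phenylpropanoid probes, 24 came from the list of rises in crt/KU-2025 made on these same arrays. On that list 0 of 1096 probes had crt/KU-2025 arrays at least 3-fold apart, so their flat lines were partly set by the choice.

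Over all probes, the crt/KU-2025 arrays differed at least 3-fold on 1921 probes (5.08%) and the WT arrays on 620 (1.64%). Among the 25982 probes well above background on all 4 arrays, the numbers were 946 (3.64%) in crt/KU-2025 and 52 (0.2%) in WT. The gaps ran both ways, with 961 probes higher on crt/KU-2025 array 1 and 960 higher on array 2. Gapped probes bore on the falls more than on the rises: 449 of the down-regulated and 49 of the up-regulated probes had crt/KU-2025 arrays at least 3-fold apart. The crt/KU-2025 arrays lay within 1.5-fold on 3753 up-regulated (84.9%) and 2366 down-regulated probes (61.1%).

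Marker lists for tissue make-up were also summed. The study had picked all of their members for differing between Ldn/KU-2025 and these same WT arrays. Shifts from WT in the direction of that choice are thus partly built in. The 40 photosynthesis probes, which mark green tissue, summed to 25382 and 286414 on the crt/KU-2025 arrays and to 16287 and 15646 on the WT arrays. The 4 histone probes, which mark dividing cells, summed to 2315 and 400 in crt/KU-2025 and to 26994 and 26925 in WT. The 9 wall synthesis probes, which mark tissue with thickened walls, summed to 46866 and 50182 in crt/KU-2025 and to 22936 and 20804 in WT. The brightest of the 9, wheat0130Contig12115, wheat0130Contig11723 and wheat0130Contig11052, were 1.33- to 2.47-fold higher in crt/KU-2025 and were not called. A laccase-4-like probe of the list (wheat0130Contig12557) was lower in crt/KU-2025, at 239 and 136, against 379 and 345 in WT, and was not called. The histone and wall synthesis sums thus set both crt/KU-2025 arrays apart from both WT arrays. For photosynthesis this held for array 2, while on array 1 a single probe (rwhcs20f08_m_664) gave 8392 of the sum, against 164 and 200 in WT. The median photosynthesis signal of crt/KU-2025 array 1 (214) was below those of WT (330 and 316). The part of tissue make-up in the other line differences was not tested.

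Many transcripts were measured in 1 line only. In crt/KU-2025 but on neither WT array, 1544 probes (4.08%) were well above background, with a median bound of 2.99-fold. In WT but on neither crt/KU-2025 array there were 1189 (3.14%), with a median bound of 3.23-fold. The bound reached 10-fold for 314 of the probes measured in crt/KU-2025 only and for 208 of those measured in WT only. The brightest crt/KU-2025 probe among them, MUGEST2003_23lib_Contig4076_p_195, has no description and gave 44531 and 56339 in crt/KU-2025 and 14.9 and 11.6 in WT, at least 1812-fold higher. The brightest WT probe, wheat0130Contig14242, also without one, gave 5.25 and 5.34 in crt/KU-2025 and 19360 and 18998 in WT, at least 767-fold lower. Probe wheat0130Contig9191, which matches a hypothetical Brachypodium protein, was at least 750-fold lower, at 7.9 and 7.25 in crt/KU-2025, against 18116 and 19419 in WT. Parentage differs between the lines, and a difference in probe match between parental alleles cannot be told apart from one in transcript level.

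Apart from the described genes, tight and large changes fell on probes with no description. Among probes measured on all 4 arrays with both pairs within 1.5-fold, rwhh15b20 rose most, with 22196 and 17979 in crt/KU-2025 and 47.2 and 45.6 in WT (log2 ratio 8.75, SE 0.14, adjusted p = 0.000923). On the falling side, MUG012B07R990525 gave 165 and 164 in crt/KU-2025 and 11167 and 10864 in WT (-6.06, SE 0.08, adjusted p = 0.000923), and wheat0130Contig9663 gave 236 and 278 in crt/KU-2025 and 15534 and 15118 in WT (-5.90, SE 0.12).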

How the data were processed

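RNA of crown tissue had been hybridised by the authors to Agilent 38k wheat arrays in 1 colour, and the deposited intensity values were the processed signals of Feature Extraction 10.7.3.1 (per the file headers; 9.5 per the processing notes in the labels). The authors' deposited scaled table (intensity after a trimmed-mean scaling) served as an alternative. Here each array's 37826 gene probes (1417 control spots left out) were scaled to a mean of 2500 after trimming 2% at each end, as the study's methods state, and log2 signals of the 4 arrays were fitted with limma 3.58.1 (lmFit, eBayes; R 4.3.3), with 2 residual degrees of freedom. A call took a 3-fold change and limma's p, adjusted by the Benjamini-Hochberg method across the whole array, below 0.05, and the fit was tested on simulated data. Only 2 arrays per line limit the precision. Scaling factors were 2.24 and 2.47 for crt/KU-2025 and 1.66 and 1.77 for WT. Named probes were those of the study's text and transcription factor tables, the largest steady changes, the largest and median member of each class, the brightest probes of 1 line only and the widest described replicate gaps. Members, lists and classes were chosen with earlier results of these data known. Alternatives were other scalings, normexp background (on median signals, since mean signals were not among the columns), a dim-probe filter, each array left out, a replicate block, the methods' t-test, all 6 arrays and a 2-fold threshold. A slide block could not be estimated. The authors' lists gave the descriptions and set which probes could enter a class, and their text and tables gave part of the named probes. Class membership thus rests on the authors' own selection, while the fold changes and p-values they printed were not used. Their list of falls in crt/KU-2025 was not analysed here.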

Additional observations from a re-analysis of the deposited data

How the results depend on the processing

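Against 4418 up-regulated and 3873 down-regulated probes, the count moved by over 1.5 times under normexp background correction (2466 up, 2157 down), for rises under the methods' t-test on linear signals (2583) and for falls under a t-test on log2 signals (2324), and a 2-fold threshold gave 7746 rises. Of the probes called here, 0 were called the other way under any of these settings. The 75th percentile scaling moved the median log2 ratio of all probes to -0.11, against 0.10 here, and gave 3652 rises and 4648 falls. With each array left out in turn there were 4003 to 5286 rises and 2818 to 4210 falls, the lone array being assumed to vary like the other line. Replicate numbers carry no stated pairing and deviations of same-numbered arrays correlated at 0.034; with the replicate block there were 4402 rises and 3859 falls. Class members called down numbered 9, and 6 to 17 with an array left out (17 without crt/KU-2025 replicate 2). Under the other background flag 655 probes were detected in WT only, at least 10-fold over the bound there were 314 in crt/KU-2025 and 208 in WT, and replicate gaps numbered 946 in crt/KU-2025 and 52 in WT among probes above background on all 4 arrays. The cause was not tested.

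Of 83 named probes called, 56 kept direction and call under all 14 settings, 27 lost the call under at least 1 and 0 turned direction. The probes whose log2 ratio turned direction were not called here. Under normexp it was 0.12 at ncbi_gi_32128580_908, 0.24 at ncbi_gi_17226800_612 and at wheat0130Contig8964, 0.11 at MUGEST2003_23lib_Contig5735_588 and 0.82 at whsh_allContig1245. Under 75th percentile scaling it was -0.17 at wheat0130Contig13695 and -0.13 at whcs5m19_789, under quantile normalization -0.14 at wheat0130Contig13695 and 0.13 at wheat0130Contig6325, and under the methods' t-test -0.06 at whcs5m19_789 and 2.29 at whsh_allContig1245. With an array left out, the range was -1.80 to 0.57 at ncbi_gi_32128580_908, -1.13 to 0.28 at ncbi_gi_17226800_612, -1.56 to 0.21 at MUGEST2003_23lib_Contig5735_588, -0.01 to 0.08 at wheat0130Contig13695, -0.62 to 0.77 at whcs5m19_789 and -0.24 to 0.19 at wheat0130Contig6325. For the probes with wide crt/KU-2025 gaps the ends came without crt/KU-2025 replicate 2 and replicate 1, at -1.20 to 6.44 for rwhsh14j20, -4.19 to 3.28 for whsh_allContig1245, -1.09 to 5.73 for wheat0130Contig7544, -0.25 to 6.47 for whsh_allContig1037 and -1.24 to 5.20 for wheat0130Contig57.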
